A study of Mus musculus with 10 samples.

Results

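Shox2 was the nearest gene of 16 differentially methylated regions (DMRs) among the 2132 DMRs deposited for lymph node stromal cells. These 16 were every DMR assigned to Shox2 in 4 tables, which compare lymph node locations within 1 housing condition or housing conditions within 1 location. Of the 16 DMRs, 8 stood among the 806 of the location table from specific pathogen-free (SPF) mice and 8 among the 1293 of the location table from germ-free (GF) mice. None stood among the 17 housing DMRs of mesenteric lymph nodes (mLN) or the 16 of peripheral lymph nodes (pLN). DMRs of different tables that overlapped were joined, which left 8 Shox2 regions of 1602 regions in all, holding 145 of the 24182 CpGs listed. Within 10 kb of the transcript start used in the tables lay 14 DMRs in 7 regions (99 CpGs), termed proximal. The other 2 DMRs formed 1 region (46 CpGs) more than 100 kb away, termed distal. No Shox2 DMR lay in between.

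The cells were non-endothelial stromal cells (SCs) of BALB/c mice, sorted as CD45-, Ter119-, CD31- and Pdpn+ (gp38+), and their DNA was analysed by whole-genome bisulfite sequencing, in which unmethylated cytosines are read as thymine. The 10 libraries comprised 3 of mLN and 3 of pLN from SPF mice aged 7 to 12 weeks, and 2 of mLN and 2 of pLN from GF mice aged 6 to 10 weeks. The mLN drain the small and large intestine, and the pLN were skin-draining nodes, given in the labels as inguinal with axillary or popliteal ones. The labels name no engineered allele. The paper lists its SPF BALB/c mice by a CD90 variant and its GF mice as BALB/c only. It used female mice unless it stated otherwise. GF animals had been derived at another institution than the SPF animals, so colony and housing cannot be told apart. The tissue field of the pLN libraries names both kinds of node, and their group was taken from the titles. Labels do not say whether replicates came from separate mice or pools, so the p-values measure the spread between libraries. In bulk DNA, a change of methylation within a cell type and a change in the mixture of sorted cells cannot be told apart.

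Shox2 encodes a transcription factor of the paired-type homeobox family, which binds DNA and is known for its part in growth of the proximal limb, in palate formation and in the sinoatrial node of the heart. Enhancers of Shox2 are known to lie in the gene-poor stretch beside it, far from the gene itself. Methylation of a CpG is copied at cell division, and low methylation over enhancers and transcript starts is commonly found where transcription factors bind. Expression of Shox2 was not measured in these files.

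In the GENCODE M21 annotation of GRCm38, Shox2 spans chr3:66971727-66981771 on the minus strand, a length of 10045 bp. The transcript start against which the tables measure distance is that of a shorter transcript and lies 3.3 kb inside the gene. Proximal regions therefore covered the body and the 3′ end of Shox2 rather than its outermost 5′ end. A window around the 5′ end given by RefSeq, chr3:66981722-66982021, held 11 CpGs, of which 0 were among the CpGs listed, so its methylation is not known here. Rsrc1, encoding a splicing-related protein, starts on the opposite strand and overlaps the 5′ end of Shox2 by 382 bp.

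All 7 proximal regions were less methylated in mLN SCs than in pLN SCs, whereas the distal region was more methylated in mLN SCs. In the proximal regions, single libraries ranged from 3.33% to 52.1% in mLN and from 47.2% to 96.4% in pLN. Group means differed by 35.5 to 68.6 percentage points. The proximal regions stretched over 9034 bp, of which 4783 bp were inside a DMR. Since the DMRs were selected on the difference between mLN and pLN, these levels are a description and carry no test. In all 8 Shox2 regions the 5 mLN libraries lay apart from the 5 pLN libraries, as did 79.9% of all 1575 regions with a location DMR.

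**Figure D1:**
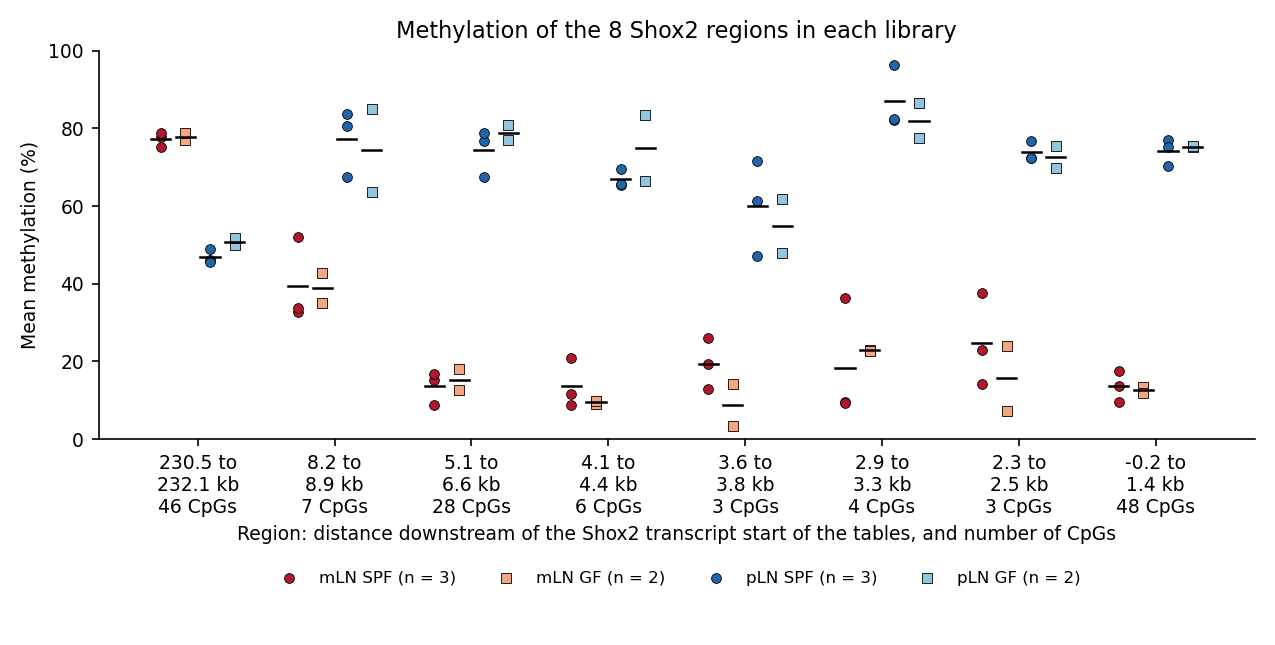
Mean methylation (%) of the 8 Shox2 regions in each library, with circles for SPF, squares for GF and bars for group means. Regions are named by distance from the transcript start of the tables. The distal region is the leftmost, where mLN libraries lie between 75.1% and 78.9% and pLN libraries between 45.7% and 51.7%.

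The region at the transcript start of the tables, chr3:66977016-66978614, held 48 CpGs over 1599 bp, with 13 of them in coding exons, 5 in untranslated sequence and 30 elsewhere. Its methylation in mLN was 9.54%, 13.6% and 17.6% in SPF mice and 13.5% and 11.7% in GF mice. In pLN it was 77.0%, 70.3% and 75.1% in SPF mice and 75.2% and 75.4% in GF mice. Both housing conditions thus had low values in mLN and high values in pLN, with means in mLN of 13.6% ± 4.02 (SD, n = 3) in SPF and 12.6% ± 1.24 (n = 2) in GF mice and means in pLN of 74.2% ± 3.48 (n = 3) and 75.3% ± 0.0837 (n = 2). Its stretch with most CpGs outside untranslated sequence is printed from GRCm38, forward strand, 5′ to 3′, with each CpG in capitals. It spans intron and coding exon, chr3:66978018-66978317, and its 12 CpGs averaged 12.0% ± 6.20 in mLN SPF, 9.59% ± 1.04 in mLN GF, 72.4% ± 11.2 in pLN SPF and 77.2% ± 1.76 in pLN GF.
Shox2 proximal, transcript start: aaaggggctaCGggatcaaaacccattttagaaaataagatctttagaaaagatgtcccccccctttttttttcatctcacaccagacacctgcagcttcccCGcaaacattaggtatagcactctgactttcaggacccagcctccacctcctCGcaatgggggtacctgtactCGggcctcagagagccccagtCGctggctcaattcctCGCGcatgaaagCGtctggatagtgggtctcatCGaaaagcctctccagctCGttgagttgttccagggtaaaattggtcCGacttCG

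The region at the 3′ end, chr3:66971883-66973330, held 28 CpGs, all of them in the 3′ untranslated region. Its values were 8.89%, 15.2% and 16.6% in mLN SPF, 12.6% and 18.1% in mLN GF, 67.6%, 76.7% and 78.8% in pLN SPF and 77.0% and 80.8% in pLN GF. No mLN library came near any pLN library here. The SPF table gave this stretch as 1 DMR and the GF table as 2.

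Between these lay 4 short regions with 3 to 6 CpGs each. The intronic region chr3:66974059-66974347, with 6 CpGs, averaged 13.7% ± 6.33 in mLN SPF and 66.9% ± 2.35 in pLN SPF. It averaged 9.45% ± 0.569 in mLN GF and 75.0% ± 12.1 in pLN GF. Its sequence is shown because all 6 CpGs separated the 10 libraries, at a lower CpG density than at the transcript start. It held 2.07 CpGs per 100 bp, against 3.0 there and a median of 2.11 over all regions. Bases chr3:66974059-66974348 run from the first to the last CpG of the DMR, forward strand, with CpGs in capitals.
Shox2 proximal, intron: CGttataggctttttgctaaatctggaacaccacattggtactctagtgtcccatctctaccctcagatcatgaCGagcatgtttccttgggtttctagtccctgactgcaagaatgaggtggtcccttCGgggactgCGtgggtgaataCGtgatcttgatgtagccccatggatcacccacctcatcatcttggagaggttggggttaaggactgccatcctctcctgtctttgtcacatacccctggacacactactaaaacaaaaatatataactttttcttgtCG

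A second intronic region, chr3:66974676-66974867, held 3 CpGs and had the lowest pLN levels of the proximal regions, at 60.1% ± 12.3 in SPF and 55.0% ± 9.83 in GF. Its mLN levels were 19.4% ± 6.52 and 8.79% ± 7.72. The region chr3:66975172-66975515 held 4 CpGs, 2 of them in a coding exon, and had the highest pLN levels. Its mLN libraries read 9.42%, 9.38% and 36.4% in SPF and 23.0% and 22.6% in GF, against 82.1%, 82.4% and 96.4% in pLN SPF and 86.5% and 77.5% in pLN GF. Replicate 3 of mLN SPF stood above the other mLN SPF libraries there, as it did in every proximal region except the second intronic one. The same replicate was the highest mLN library at chr3:66975894-66976164, a region of 3 CpGs, with 37.5% against 22.9% and 14.2% in SPF and 7.20% and 24.1% in GF. The pLN libraries of that region ranged from 69.8% to 76.7%.

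The remaining proximal region, chr3:66969581-66970220, lay 1507 bp past the 3′ end of the gene and was listed only in the SPF table. Its 7 CpGs gave the smallest separation, at 32.7%, 33.7% and 52.1% in mLN SPF and 42.6% and 34.9% in mLN GF. The pLN libraries read 80.7%, 67.5% and 83.7% in SPF and 63.7% and 85.0% in GF. Within it, the CpG at position 66970007 averaged 23.0% over the mLN libraries and 86.5% over the pLN libraries, whereas the CpG farthest from the gene, at position 66969581, averaged 69.1% and 83.8%. The difference was thus unevenly spread over its CpGs.

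At the level of single CpGs, 77 of the 99 proximal CpGs (77.8%) had all 5 mLN libraries below all 5 pLN libraries. Over the CpGs of every region less methylated in mLN this share was 31.8%. These libraries include those that called the DMRs, so both shares are a description and carry no test. The background also includes regions listed in 1 location table only, whereas the proximal Shox2 regions were listed in both, except the one past the 3′ end. None of the 145 CpGs was separated against the direction of its region. The separated CpGs numbered 38 of 48 at the transcript start, 23 of 28 in the 3′ untranslated region, 6 of 6 and 2 of 3 in the intronic regions, 4 of 4 and 2 of 3 in the regions with exon CpGs, and 2 of 7 past the 3′ end. Among the values of single CpGs and libraries, 185 of 495 (37.4%) were exactly 0 in mLN and 4 of 492 (0.813%) in pLN. The number of reads behind each value was not used here, so no counting interval is given, and 3 of the 1450 Shox2 values were missing.

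**Figure D2:**
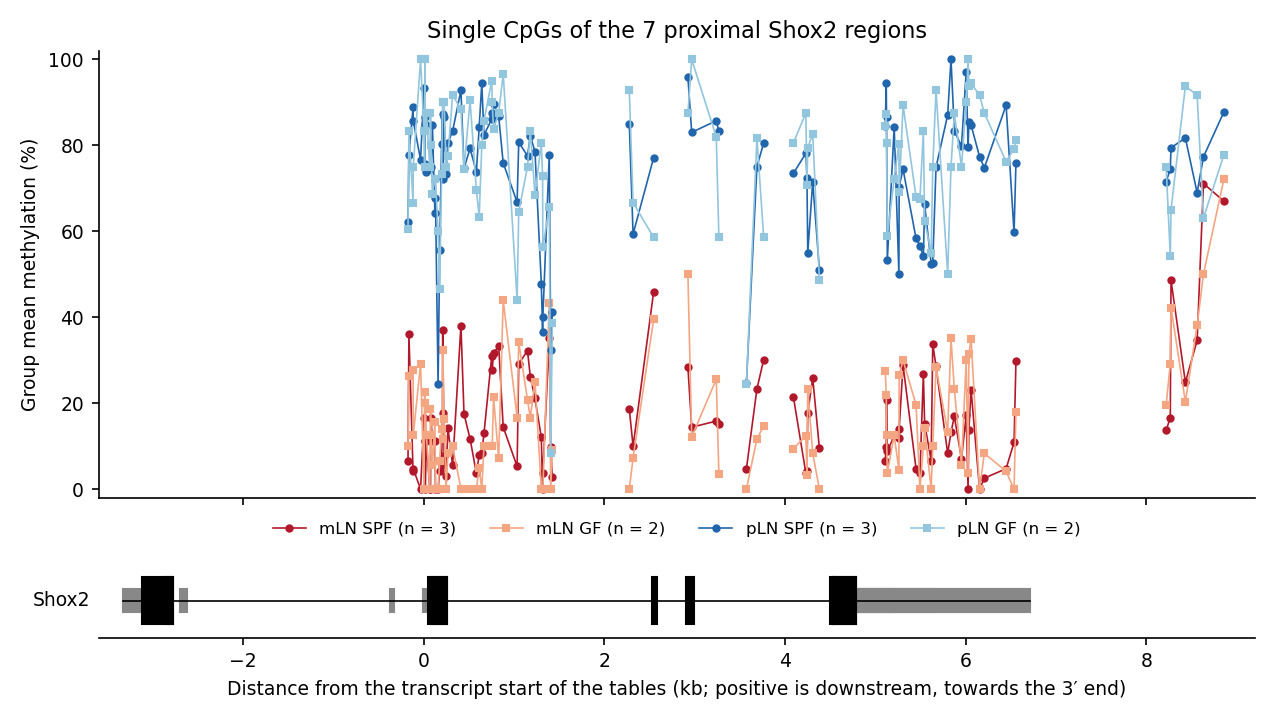
Group mean methylation (%) of the 99 proximal CpGs against distance (kb) from the transcript start of the tables, with the exons of Shox2 beneath (black, coding; grey, untranslated). mLN means lie below pLN means at nearly every CpG, and 77 of the 99 CpGs separate all 10 libraries.

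The distal region, chr3:66746341-66747972, was intergenic and 230.5 kb from the transcript start of the tables, on the side of the 3′ end. It covered 1632 bp with 46 CpGs. Methylation was 77.8%, 78.9% and 75.1% in mLN SPF and 77.0% and 78.7% in mLN GF. In pLN it was 46.2%, 49.0% and 45.7% in SPF and 50.1% and 51.7% in GF. Averaged over the region, mLN SCs were thus high and pLN SCs intermediate, and replicates within a group differed by a few points only. Group means were 77.3% ± 1.94 and 77.8% ± 1.23 in mLN of SPF and GF mice and 46.9% ± 1.79 and 50.9% ± 1.13 in pLN of SPF and GF mice.

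The intermediate pLN level was an average of methylated flanks and a weakly methylated core. The core, bounded after the values were seen as the longest run of CpGs with a pLN mean under 50%, spanned chr3:66746901-66747421 (521 bp, 22 CpGs). Here pLN libraries read 5.62%, 19.4% and 11.0% in SPF and 13.5% and 20.1% in GF. The mLN libraries read 65.4%, 72.8% and 66.5% in SPF and 68.2% and 71.1% in GF, also lower than in the flanks. Single core CpGs averaged 25.5% to 92.6% over the mLN libraries. The core carried 17 of the 18 distal CpGs that separated all 10 libraries. Of its single values, 40 of 110 were exactly 0 in pLN and 1 of 110 in mLN.

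In the 15 CpGs before the core, the libraries overlapped, at 83.9% to 91.3% in mLN and 82.6% to 89.6% in pLN. In the 9 CpGs after it they overlapped too, at 76.3% to 87.3% and 61.7% to 79.2%. The SPF libraries alone did not overlap there, with means of 83.7% ± 3.11 in mLN and 67.9% ± 9.81 in pLN. The GF libraries did, with means of 79.2% ± 4.21 and 75.5% ± 2.62. These flanks held 0 and 1 CpGs that separated all 10 libraries. Over the whole distal region 18 of 46 CpGs (39.1%) separated the libraries, against 34.7% over the CpGs of all regions more methylated in mLN. These shares too come from libraries that called the DMRs and carry no test.

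**Figure D3:**
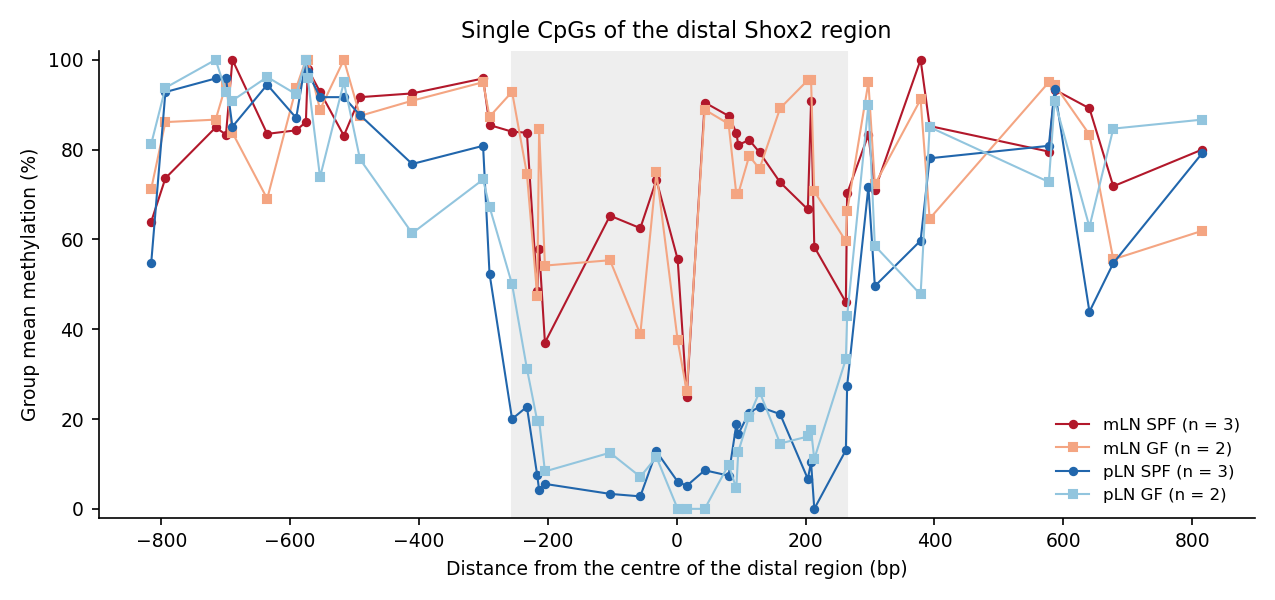
Group mean methylation (%) of the 46 distal CpGs against distance (bp) from the centre of the region, with the core of 22 CpGs shaded. In the core the pLN libraries average 5.62% to 20.1% and the mLN libraries 65.4% to 72.8%. Averaged over each flank, the ranges of all mLN and all pLN libraries overlap, though not those of the SPF libraries after the core.

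For comparison within the distal region, a CpG-rich stretch that lies almost wholly in the core and a stretch of the first flank are shown from GRCm38, forward strand, with CpGs in capitals. The core stretch, chr3:66747123-66747422, held 15 CpGs with 70.9% ± 4.25 in mLN SPF, 72.3% ± 4.64 in mLN GF, 13.2% ± 9.0 in pLN SPF and 14.7% ± 4.59 in pLN GF. The flank stretch, chr3:66746441-66746740, held 10 CpGs with 88.8% in mLN SPF, 90.4% in mLN GF, 92.6% in pLN SPF and 91.5% in pLN GF.
Shox2 distal, core: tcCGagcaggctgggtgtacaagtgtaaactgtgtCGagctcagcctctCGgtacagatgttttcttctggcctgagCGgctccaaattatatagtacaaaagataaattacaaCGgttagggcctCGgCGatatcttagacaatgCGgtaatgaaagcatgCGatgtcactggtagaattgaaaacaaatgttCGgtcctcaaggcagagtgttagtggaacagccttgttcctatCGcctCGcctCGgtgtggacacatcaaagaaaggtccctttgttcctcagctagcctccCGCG
Shox2 distal, flank: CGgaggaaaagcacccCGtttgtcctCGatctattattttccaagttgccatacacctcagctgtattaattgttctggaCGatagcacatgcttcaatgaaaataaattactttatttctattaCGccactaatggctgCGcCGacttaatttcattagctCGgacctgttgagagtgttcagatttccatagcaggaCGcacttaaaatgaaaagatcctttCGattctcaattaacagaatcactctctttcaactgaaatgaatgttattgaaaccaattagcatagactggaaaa

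Each DMR was then tested in the libraries that had taken no part in its call. DMRs of the SPF table were tested between mLN and pLN of GF mice, and those of the GF table between mLN and pLN of SPF mice, with limma fitted on the whole table and Benjamini-Hochberg adjustment over all its DMRs. In GF mice 8 of the 8 Shox2 DMRs passed an adjusted p of 0.05, against 89% of the 806 DMRs in either direction. In the listed direction the share was 92.8% of the 333 listed as less methylated in mLN and 86.3% of the 473 listed as more methylated. In SPF mice 8 of 8 passed, against 82.4% of the 1293 DMRs, or 79.4% of the 689 listed as less and 85.8% of the 604 listed as more methylated in mLN. The counts were near this background, since most location DMRs passed in the other housing condition. All Shox2 regions except the one past the 3′ end were listed in both location tables. The libraries used for their test had thus called overlapping DMRs themselves. The backgrounds and size ranks of both tables include DMRs listed in 1 location table only.

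The proximal differences were large among all DMRs. In GF mice, mLN minus pLN was -62.7 points (SE 3.98, limma adjusted p = 0.000423) at the transcript start, the 24th largest of 806 in size. It was -64.1 (SE 4.44, limma adjusted p = 0.000423) in the 3′ untranslated region and -65.5 (SE 6.35, limma adjusted p = 0.000537) in the first intronic region, which ranked 18 and 16. The median size over the table was 30.7 points. The DMR past the 3′ end was the smallest proximal one, at -35.5 (SE 7.70, limma adjusted p = 0.00534, rank 290).

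In SPF mice, the largest differences at Shox2 were -69.5 points (SE 4.51, limma adjusted p = 8.86e-06) at chr3:66971883-66972486 in the 3′ untranslated region and -68.6 (SE 7.58, limma adjusted p = 3.47e-05) at chr3:66975172-66975515. They ranked 6 and 8 of 1293, where the median size was 26.4 points. The smallest proximal difference was -40.7 (SE 6.49, limma adjusted p = 0.000259, rank 232), in the second intronic region. The other 4 proximal DMRs lay between -57.1 and -49.0.

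The distal DMR was of ordinary size. It differed by 28.6 points (SE 4.01, 95% interval 18.7 to 38.5, limma adjusted p = 0.00106) in GF mice and ranked 458 of 806. In SPF mice it differed by 30.3 points (SE 4.20, 95% interval 21.0 to 39.7, limma adjusted p = 0.000115) and ranked 510 of 1293. Per CpG, 86 of the 94 proximal CpGs of the SPF table (91.5%) separated the GF libraries, against 67% of the CpGs listed as less methylated in mLN. For the distal CpGs the count was 26 of 44 (59.1%), against 62.8% of those listed as more methylated. In the SPF libraries, 64 of 72 proximal CpGs of the GF table (88.9%) and 23 of 46 distal CpGs (50%) were separated, against 44.6% and 52.7%.

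**Figure D4:**
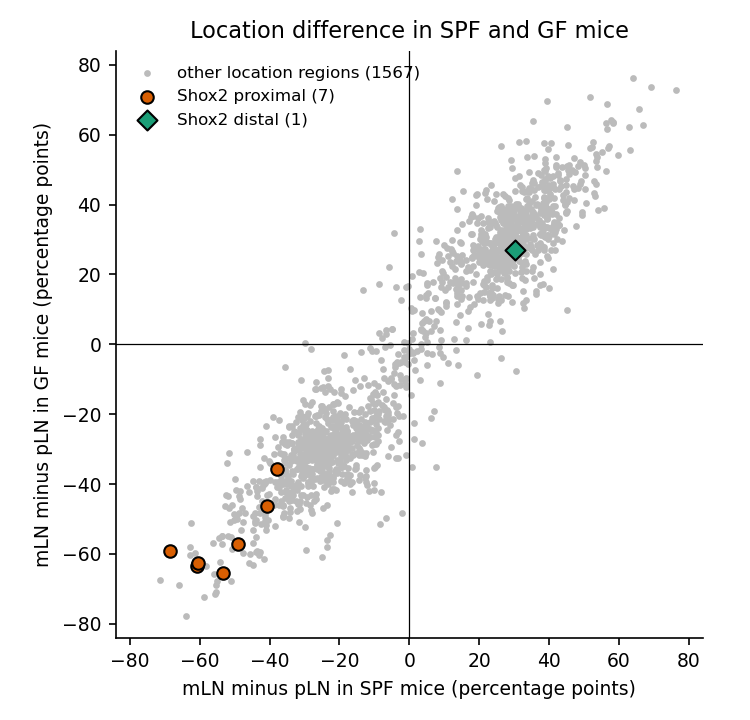
Difference mLN minus pLN (percentage points) of each region with a location DMR in SPF mice (horizontal) and GF mice (vertical), with the 8 Shox2 regions coloured. The 7 proximal regions lie in the lower left part, between -68.6 and -37.8 in SPF mice, and the distal region lies at 30.3 and 27.0.

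To set the proximal DMRs against the distal one, the distal level was subtracted from the mean of the 7 proximal DMRs in each unused library. For DMRs of the SPF table this value was -61.3 and -59.0 points in the mLN GF libraries and 26.8 and 21.5 points in the pLN GF libraries. Proximal sequence was therefore less methylated than distal sequence in mLN SCs and more methylated in pLN SCs. The means were -60.2 ± 1.62 and 24.2 ± 3.71 (SD, n = 2 each), which differed by -84.3 points (exact permutation test, two-sided, p = 0.33, the smallest that 2 against 2 libraries allow).

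For DMRs of the GF table the value was -66.0, -64.8 and -51.2 points in mLN SPF and 23.7, 25.4 and 28.0 points in pLN SPF. Again the sign was opposite in mLN and pLN in each library. The means of -60.7 ± 8.22 and 25.7 ± 2.16 (n = 3 each) differed by -86.4 points with a pooled SD of 6.01 (exact permutation test, two-sided, p = 0.1, the smallest that 3 against 3 libraries allow). In these SPF libraries the proximal mean was 16.6% ± 6.46 in mLN and 72.6% ± 2.44 in pLN. Since nearly all these regions were listed in both location tables, neither contrast is free of the selection of DMRs.

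Among location DMRs of any gene, direction varied with distance as well. Within 10 kb of a transcript start, 56.0% of 352 DMRs of the SPF table and 66.5% of 544 of the GF table were listed as less methylated in mLN. Beyond 100 kb, 73.7% of 137 and 57.1% of 198 were listed as more methylated in mLN. Few genes had DMRs in both distance classes, 6 of 547 in the SPF table and 7 of 908 in the GF table. Proximal DMRs less methylated and distal DMRs more methylated in mLN were listed for Cntnap4, Shox2 and Six2 in the SPF table and for En1 and Shox2 in the GF table. Only Shox2 was named in both, but the values were not particular to it. Distal regions differed by 41.6 and 32.1 points in SPF and GF mice at En1, 25.1 and 23.6 at Six2, and 29.3 and 23.3 at Cntnap4. Proximal regions of these genes were less methylated in mLN in both housing conditions. The reverse was listed for Gm26137, and the other 2 and 5 genes had the same direction in both classes.

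**Figure D5:**
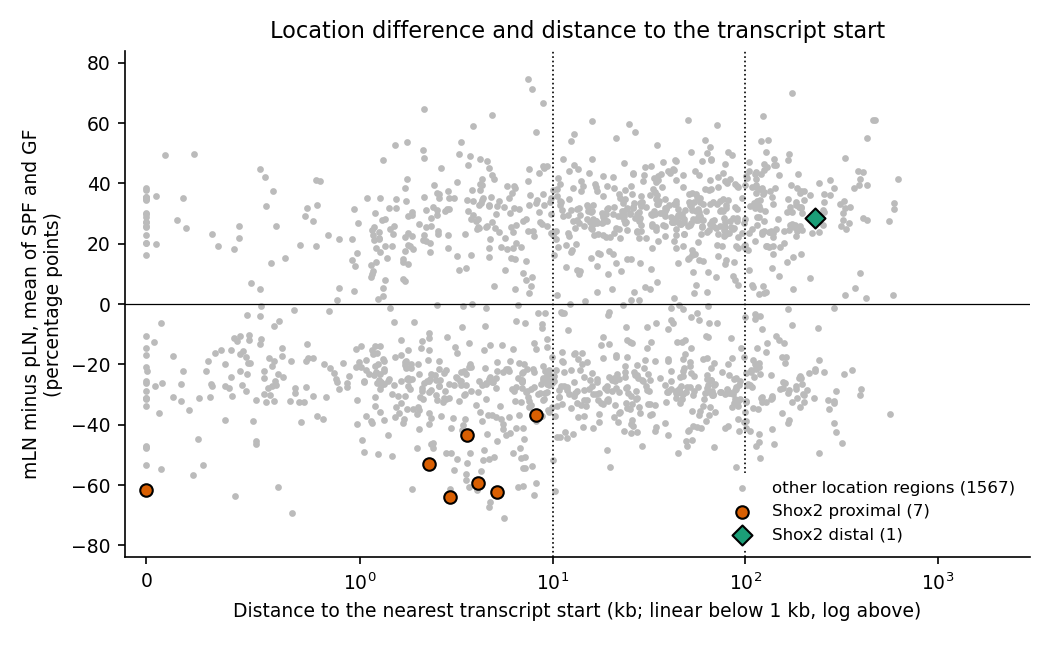
Difference mLN minus pLN (percentage points, mean of SPF and GF) of each region with a location DMR against distance (kb) to the nearest transcript start, linear below 1 kb and logarithmic above, with dotted lines at 10 kb and 100 kb. Most proximal Shox2 regions lie near the lower edge. The region past the 3′ end and the second intronic region lie amid other regions, as does the distal region at 230.5 kb.

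Shox2 also had many DMRs for 1 gene. Its 8 DMRs in either table compare with a median of 1 per gene, and only Emx2, En1 and Gm20467 in the SPF table and Emx2, En1 and Tbx5 in the GF table had more.

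Housing was compared over the 10 libraries with location as a covariate. None of the 8 Shox2 regions passed an adjusted p of 0.05 by limma, nor did any of the 1602 regions (0%). At an unadjusted p under 0.05 the counts were 0 of 8 and 72 of 1602 (4.49%). SPF minus GF was -2.25 points (95% interval -7.97 to 3.48) at the distal region and -0.0994 points (95% interval -6.33 to 6.13) at the transcript start, where the sign changed when single libraries were left out. The largest difference, 7.87 points (95% interval -3.11 to 18.8, limma adjusted p = 0.991), was at the second intronic region with 3 CpGs. The intervals give the sizes of a housing difference that these 10 libraries leave possible.

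The difference between locations was also compared between SPF and GF mice by an interaction term, the SPF difference minus the GF difference. None of the 8 Shox2 regions passed by limma, nor did any of the 1602 (0%), and at an unadjusted p under 0.05 the counts were 0 of 8 and 141 of 1602 (8.8%). The largest interaction was 12.3 points (95% interval -4.82 to 29.5, limma adjusted p = 0.652) at the first intronic region. It was 3.36 points (95% interval -8.23 to 15) at the distal region. Over the 8 regions the intervals reached from -33.9 to 29.5 points, widest in regions with few CpGs. The region past the 3′ end was listed in SPF mice only and so was selected on a part of this contrast.

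Neighbouring genes within 1 Mb had 4 DMRs. The nearest, chr3:66983461-66984209, was assigned to Rsrc1 in both location tables, although it lay 1690 bp from the 5′ end of Shox2. It is an intronic stretch of Rsrc1 with 10 CpGs, and read 27.4%, 21.4% and 26.5% in mLN SPF, 19.8% and 38.5% in mLN GF, 68.0%, 81.3% and 76.3% in pLN SPF and 79.2% and 79.8% in pLN GF. Its direction was that of the proximal Shox2 regions, with -50.4 points (SE 6.72, limma adjusted p = 0.000908) in GF mice and -50.1 (SE 4.90, limma adjusted p = 1.98e-05) in SPF mice.

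On the far side of the distal region, chr3:66592017-66592786 was assigned to Veph1 in the GF table. Its 12 CpGs were less methylated in mLN, at 35.1% ± 5.32 and 28.7% ± 7.25 in mLN SPF and GF against 56.1% ± 2.82 and 65.4% ± 1.33 in pLN, with -20.9 points (SE 4.64, limma adjusted p = 0.00192) in SPF mice. A DMR assigned to Iqcj, chr3:67867357-67868424, was listed in the GF table as more methylated in mLN. The distal Shox2 region was thus flanked on both sides by DMRs of the opposite direction.

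Regions of other genes were ranked by likeness, as the root mean square difference over the 10 libraries. Nearest to the Shox2 region at the transcript start were regions at Hlx (4.17 points), Tbx15 (4.91), Gm16140/Meis1 (5.25), Emx2 (6.36) and En1 (6.38), against a median of 40.6 points over the other regions. Hlx, Meis1, Emx2 and En1 encode homeobox factors, and Tbx15 a T-box factor. Nearest to the distal region were regions at Gm27952 (1.76 points), A230009B12Rik (2.80), Psmc1 (3.18), Rhbdd1 (3.22) and Gm28003 (3.31), with a median of 27.2. Both medians are over all 1594 other regions, including those of the opposite direction, and none was taken within a direction. Psmc1 encodes a proteasome subunit.

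A list of 32 genes was drawn up of factors known to act with Shox2 in limb, palate and sinoatrial node, and of genes beside it on the chromosome, with earlier results of these data known. Of these 32, 16 (50%) were the nearest gene of a location DMR, against 3.04% of 21900 protein-coding genes. Since the list was drawn up with results known, and no like set of developmental genes was counted, this difference carries no test. Only less methylated DMRs in mLN were listed for 11 of them, which were Hoxa10, Hoxd9, Hoxd10, Hoxd11, Meis1, Meis2, Pitx1, Rsrc1, Tbx3, Tbx18 and Veph1. Only more methylated DMRs were listed for 4, which were Isl1, Prrx1, Sox5 and Sox6, and both kinds for Tbx5. In unused libraries, limma called 26 of 26 less methylated and 11 of 12 more methylated DMRs of these genes from the SPF table, and 32 of 35 and 9 of 9 from the GF table. Most location DMRs passed this test. Over all DMRs the shares called in the listed direction were 92.8% and 86.3% for the SPF table and 79.4% and 85.8% for the GF table. Each share at the listed genes was above its background, which was not tested.

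The values covered a wide range. At Tbx18, a T-box gene of the sinoatrial node, chr9:87736842-87738036 differed by -77.9 points (SE 5.18, limma adjusted p = 0.000423) in GF mice. At Isl1, encoding a LIM-homeobox factor, chr13:116295344-116295845 differed in the other direction by 54.0 points (SE 4.29, limma adjusted p = 0.000487) in GF mice. At Prrx1, a paired-type homeobox gene like Shox2, chr1:163309076-163309495 differed by 67.8 points (SE 4.75, limma adjusted p = 8.86e-06) in SPF mice. The DMRs at Hoxa10, Hoxd10 and Hoxd11 did not pass in SPF mice, with -11.8, -9.26 and -3.32 points (limma adjusted p = 0.0678, 0.0781 and 0.652), nor did the DMR chr1:163356167-163357012 at Prrx1 in GF mice, with 14.1 points (limma adjusted p = 0.0779).

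Marker genes of cell types were counted in the same way, against the 3.04% of protein-coding genes nearest to a location DMR. Of the stromal markers 1 of 8 (12.5%) was (Cxcl13, more methylated in mLN), and of the endothelial markers 1 of 6 (16.7%, Kdr, less methylated). The count was 0 of 5 for haematopoietic, 0 of 4 for epithelial or mesothelial and 0 of 3 for perivascular markers. Whether the sorted populations differed in their mixture of SC subsets was not tested.

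In base composition, the distal region and the region at the transcript start were alike, with 2.82 and 3.0 CpGs per 100 bp against a median of 2.11 over all 1602 regions. The ratio of observed to expected CpGs was 0.571 and 0.583, with a median of 0.406. The other proximal regions held between 1.09 and 2.07 CpGs per 100 bp. Central windows of 300 bp were searched on both strands for TAATTA, a core bound by paired-type homeodomains, and for TGACAG, a core bound by MEIS factors, which do not overlap. TAATTA was in 0 of 8 Shox2 windows and 9.68% of all windows, and TGACAG in 1 of 8 and 23.0%, which describes these letters only. Outside the central windows, TAATTA did occur 1 time in the distal region and 1 time in the region at the transcript start. TGACAG occurred 2 times over the whole region in the 3′ untranslated region. No background was counted over whole regions.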

How the data were processed

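Per the labels and methods of the study, the authors trimmed reads with cutadapt 1.4, checked them with FastQC 0.11.1, aligned them to GRCm38 with BSMAP 2.4.3, smoothed methylation with bsseq and called DMRs of at least 3 CpGs and 25 points. The deposited CpG table holds, per library and CpG, methylation before smoothing as a fraction between 0 and 1, and of the authors' group means, differences and DMR scores in the other tables only signs were used to order directions, and sizes to set a limit in 1 alternative. Between 99.6% and 99.9% of CpGs had a value in each library, and read depth per CpG was not used here, so no depth-based precision is given. Library means lay between 48.2% and 52.2%.

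Fractions were multiplied to percent and averaged over the CpGs of each DMR, without smoothing or a filter on coverage. DMRs sharing 1 bp were joined. Location differences are mLN minus pLN. Tests were made with limma 3.58.1 in R 4.3.3 on all DMRs of a table, with Benjamini-Hochberg adjustment at 0.05, and checked on simulated data. The members and gene lists were chosen with earlier results of these data known. All Shox2 DMRs, all DMRs within 1 Mb and the 5 most alike regions were named; the network and marker genes were named by count, with values for those of large difference or without a call, chosen after their values were seen. Gene models are GENCODE M21, sequences and the promoter window RefSeq. All 24182 CpG positions carried CG in GRCm38. The authors left out 1 mLN GF and 1 pLN GF replicate as outliers. Alternatives tried were complete CpGs, medians, a logit scale, larger DMRs, a nearer proximal limit, single libraries left out and a replicate block. One gene of the network list is not reported here and was left out of its counts.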

Additional observations from a re-analysis of the deposited data

How the results depend on the processing

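The difference between mLN and pLN kept its direction and its call for every Shox2 DMR under each alternative that retained it. Requiring at least 5 CpGs drops 3 short DMRs of each table by construction and left 5 of 5 called in GF mice and 5 of 5 in SPF mice. With an authors' difference of at least 35 points required, 7 of 7 Shox2 DMRs were called in each table, the distal one being dropped by construction, and 151 of 153 and 233 of 237 of all DMRs. Leaving out 1 library at a time, the Shox2 calls ranged from 8 to 8 in both tests, housing and interaction calls from 0 to 0, and the proximal minus distal contrast from -87.0 to -81.7 in GF and from -91.1 to -83.7 in SPF libraries. The largest limma adjusted p of a Shox2 DMR over all alternatives was 0.0418, at the DMR past the 3′ end in GF mice. No housing difference or interaction at Shox2 passed under an alternative, but 4 of the 8 housing differences and 4 of the 8 interactions, all smaller than their SE, changed sign under some. With 1 library left out, SPF minus GF ranged from -2.53 to 5.67 points past the 3′ end, -4.05 to 2.83 in the first intronic region, -3.39 to 2.76 at chr3:66975172-66975515 and -1.10 to 0.872 at the transcript start. The interaction ranged from -12.9 to 8.40 points past the 3′ end, -0.596 to 5.50 in the 3′ untranslated region, -1.47 to 12.4 in the second intronic region and -0.365 to 16.5 at chr3:66975894-66976164. With complete CpGs the housing difference at the transcript start was 0.326 points, and with medians the interaction in the 3′ untranslated region was -0.818 points. In log2 logit units the housing difference was -0.32 past the 3′ end and -0.17 at chr3:66975172-66975515, and the interaction past the 3′ end was 0.30. On the logit scale the contrast was -8.25 and -8.43 log2 logit units.

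The replicate numbers were not taken to pair the samples. Deviations of same-numbered mLN and pLN libraries from their group means correlated at 0.0142, 0.0322 and -0.0371 in SPF and -0.0315 in GF mice. With 2 libraries per GF group, the GF values of all pairs are the same apart from sign. These correlations cannot show whether same-numbered libraries shared mice or pools. With a replicate block the Shox2 calls were 8 and 8, housing and interaction calls 0, the housing differences that changed sign -2.92 points past the 3′ end and -6.59 points at chr3:66975172-66975515, and the contrasts -84.3 (exact permutation p = 0.5) and -86.4 (exact permutation p = 0.25). Over all DMRs 721 and 1082 were called with the block, against 717 and 1066 without it.

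Depth limits single CpG values, which were averaged without weights, so regions of 3 to 7 CpGs rest on fewer values than those of 28 to 48. The 2 libraries of each GF group and 3 of each SPF group limit the precision of every test.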
